A study of Homo sapiens with 4 samples.

Results

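Cytosolic ribosomal protein genes encode the proteins of the ribosome that translates messages in the cytoplasm. They were followed here in MDA-MB-231 cells, an established human breast carcinoma line, after growth in medium made from field-exposed saline. Members were the genes of the authors' deposited comparison sheet whose single symbol begins with RPL or RPS and a number, with RPLP0, RPLP1, RPLP2 and RPSA allowed by name. The rule found 77 of the 24305 genes with 1 name: 40 large subunit genes, 29 small subunit genes and 8 paralogs, which are named after a related ribosomal protein gene. Membership rests on symbols and no expression value. Where a symbol has several groups of probes (transcript clusters), the rule takes the one with the highest mean signal.

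The ribosome has a large subunit, which joins amino acids, and a small subunit, which reads the message. Each protein is normally needed in a fixed proportion to the others, and most of these messages begin with a C followed by a run of pyrimidines, the terminal oligopyrimidine (TOP) tract. Through this tract the kinase mTORC1 and the RNA-binding protein LARP1 control how strongly they are translated and stored.

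Cells grew for 24 hours in standard medium (DMEM with 10% serum) and then for 3 days in 1 of 2 media. Both media held concentrated DMEM and 9 parts of hypotonic saline. The saline of the treated medium had been exposed for 30 minutes to a field that the labels name dc DEP EMF, from a device named BEFE unit, and the saline of the control medium had not. The series holds 4 samples, control and treated at gene level and at exon level, and the levels are summaries of the same hybridisations, since the 5391 probe sets found in both tables had identical values. RNA quality was checked in 5 biological replicates of each group, per the labels, but there is 1 column of values per medium and level, so no difference below has a replicate check, an error or a p-value. VIM, the mesenchymal filament gene that this line is known for, had a log2 signal of 11.04 in control medium and 11.02 in treated medium. The estrogen receptor gene ESR1 (6.22 and 6.22), the progesterone receptor gene PGR (5.60 and 5.60) and the E-cadherin gene CDH1 (5.81 and 6.29) lay under the signal floor of 7.17.

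The start sites of some genes described below are shown first, each on the strand of its gene. Given are 35 bases around the first transcribed base in the RefSeq table of build GRCh38.p14. Capitals mark the run that opens with C at the start and goes on in C or T. The first 5 genes had the largest gaps between exon-level probe sets described below, and the last 4 are parent genes and paralogs.
RPLP0: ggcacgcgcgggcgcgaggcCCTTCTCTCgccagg
RPL13A: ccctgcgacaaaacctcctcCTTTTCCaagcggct
RPS23: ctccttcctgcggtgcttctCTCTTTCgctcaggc
RPLP1: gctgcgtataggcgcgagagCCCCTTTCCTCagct
RPL29: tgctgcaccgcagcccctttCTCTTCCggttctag
RPS27: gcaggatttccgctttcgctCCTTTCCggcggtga
RPS27L: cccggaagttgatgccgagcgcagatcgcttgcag
RPL22: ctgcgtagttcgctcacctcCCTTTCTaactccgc
RPL22L1: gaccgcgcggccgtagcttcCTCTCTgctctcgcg
The windows lie at chr12:120201097-120201131 on the minus strand (RPLP0), chr19:49487588-49487622 on the plus strand (RPL13A), chr5:82278340-82278374 on the minus strand (RPS23), chr15:69452798-69452832 on the plus strand (RPLP1) and chr3:51995881-51995915 on the minus strand (RPL29). Those of the last 4 lie at chr1:153990742-153990776 on the plus strand (RPS27), chr15:63157463-63157497 on the minus strand (RPS27L), chr1:6199581-6199615 on the minus strand (RPL22) and chr3:170870181-170870215 on the minus strand (RPL22L1).

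The table held 62 of the 77 members by symbol. A run of at least 5 letters, a C exactly at the annotated start and only C or T after it on the strand of the gene, was present at 1 or more annotated starts of 43 of the 62, or 69.4%. The same run was present for 5.14% of all 27305 genes in the table. It was found for 42 of 56 members that are not paralogs and for 1 of 6 paralogs, RPL22L1. RPS27L, whose parent RPS27 has a run of 7 letters, has none at its annotated start. RPL32, which is lower in treated medium as described below, is not shown and has no such run at any of its annotated starts.

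At gene level most ribosomal protein messages had nearly the same signal in both media. In the clusters that the rule takes, the few past 1.5-fold were large subunit genes. On the lower side they ran on into the other members of both subunits without a clear gap. Of the 77 members, 73 had a mean log2 signal of at least 7.17, the median over genes with 1 name. Their median difference, treated minus control, was -0.09 on the log2 scale with quartiles of -0.23 and 0.04, beside a median of -0.01 and quartiles of -0.26 and 0.25 over all 12353 genes above the floor. Within 1.5-fold lay 68 of the 73 (93.2%), beside 80.8% of all genes, and the SD of the differences was 0.305 over members and 0.543 over all genes. Below 0 lay 51 of the 73 (69.9%), beside a background of 50.6%. Bulk RNA cannot tell less RNA per cell from fewer cells that hold the RNA.

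At least 2-fold higher in treated medium was 1 member, RPL37, against a background of 3.22% of genes. At least 2-fold lower was also 1 member, RPLP0, against 3.46%. No further member joined RPL37 at 1.5-fold higher (background 9.46%). RPL29, RPL32 and RPL7 joined RPLP0 at 1.5-fold lower, so 4 of 73 passed that limit, against 9.74%. All 5 genes past 1.5-fold belong to the large subunit. In clusters that the rule does not take, RPS27 and RPS18 of the small subunit also passed it. RPS27 was 1.66-fold higher there, and 1 cluster of RPS18 was 1.65-fold lower at a mean signal of 5.20, under the floor. Neither limit was passed by a larger share of the members than of all genes. The members below the floor were RPS12 (mean log2 signal 7.10) and the paralogs RPL3L (6.92), RPS27L (6.65) and RPL10L (5.48).

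**Figure D1:**
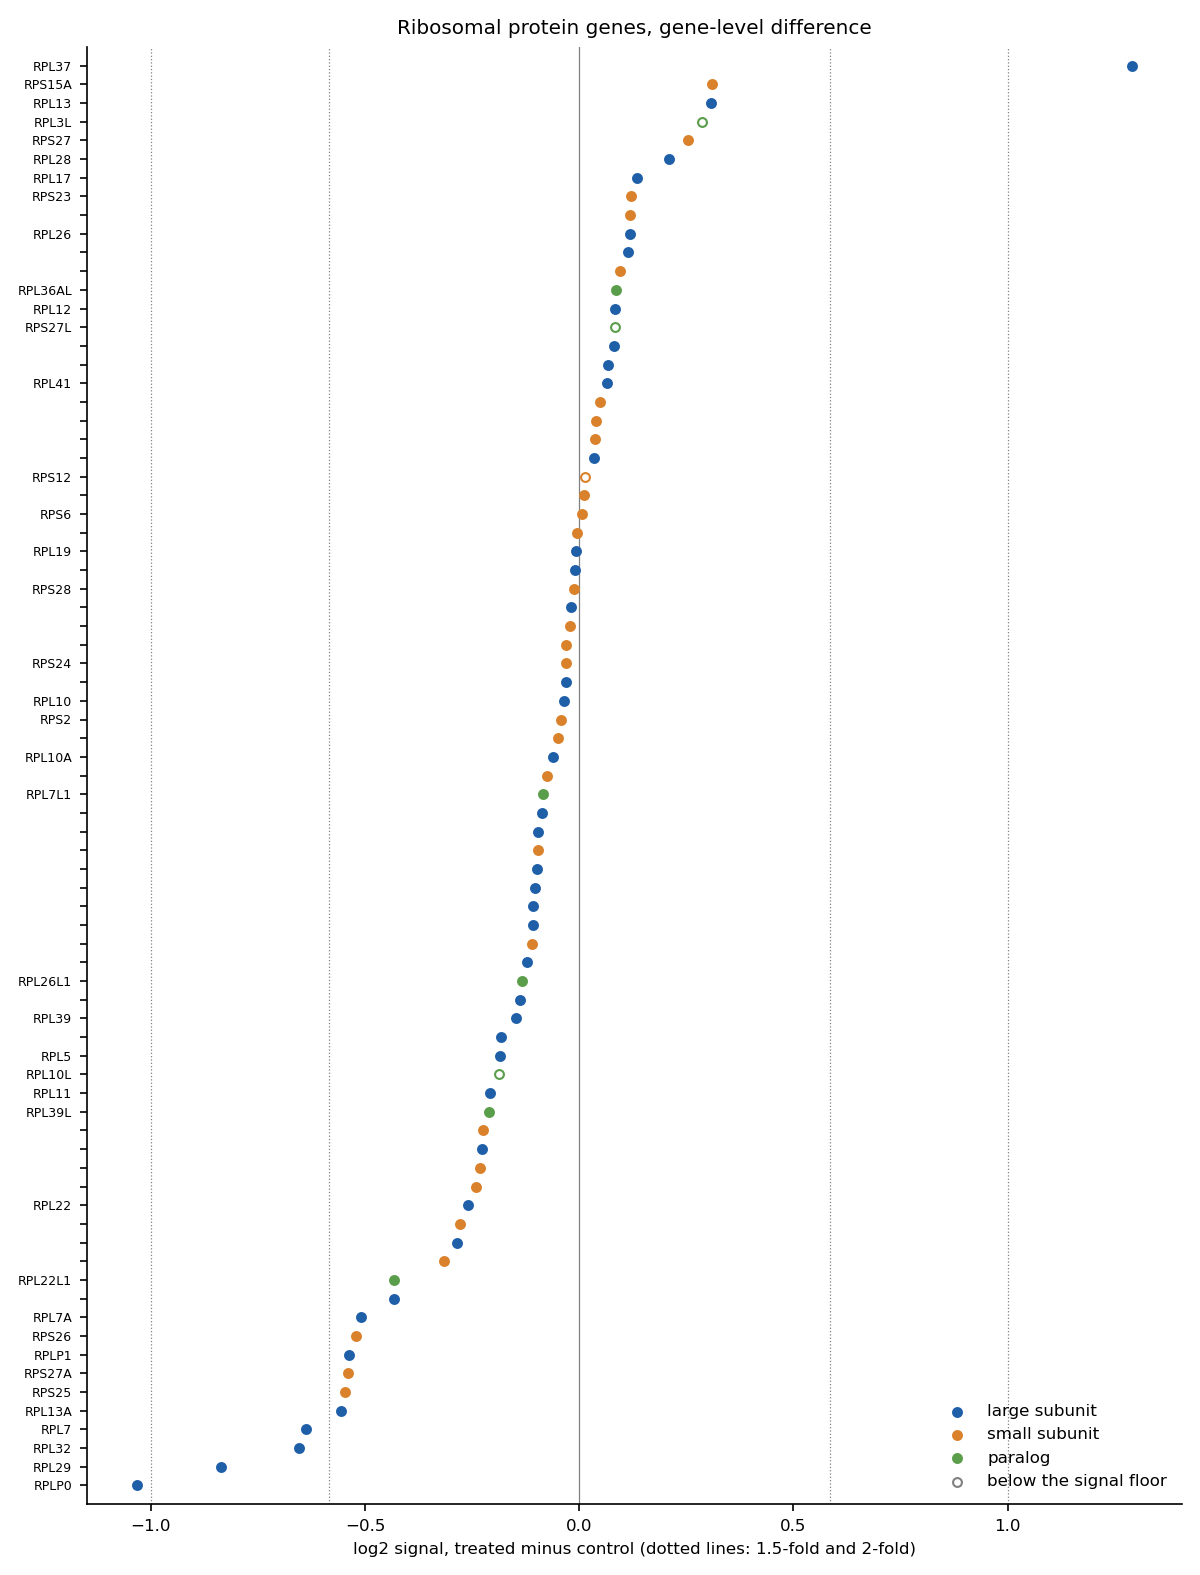
Gene-level log2 difference, treated minus control, of the 77 ribosomal protein genes (1 point a gene, x axis in log2 units), ranked and coloured by subunit, with open points for the 4 genes below the signal floor and dotted lines at 1.5-fold and 2-fold. RPL37 lies alone on the right at 1.29 and RPLP0 is lowest at -1.03, while 68 of the 73 genes above the floor lie between the 1.5-fold lines. Names are given for genes described in the text.

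Among large subunit genes, RPLP0 was lowest. It encodes the base of the P stalk, the flexible arm that recruits translation factors, and is often used as a reference gene for quantitative PCR. Its log2 signal was 10.24 in control medium and 9.21 in treated medium, a difference of -1.03. It has 1 transcript cluster, 16771216. RPL29 had 10.37 in control medium and 9.53 in treated medium, a difference of -0.84. RPL32 had 8.46 and 7.81, a difference of -0.65, and RPL7 had 7.59 and 6.95, a difference of -0.64. These 4 were followed without a clear gap by RPL13A at -0.56, RPLP1 at -0.54 and RPL7A at -0.51. At the other end RPL13 had 8.06 in control medium and 8.37 in treated medium, a difference of 0.31, and RPL28 had 8.33 and 8.54, a difference of 0.21. RPL13 and RPL28 are the highest large subunit genes after RPL37.

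RPL37, a zinc-binding protein of the large subunit, had 2 transcript clusters with the same accession and opposite differences. The cluster with the higher mean signal (16995715), which the rule takes, had 8.45 in control medium and 9.75 in treated medium, a difference of 1.29. It rested on 1 exon-level probe set, which had these same values. The other cluster (16995705) had 8.29 in control medium and 8.0 in treated medium, a difference of -0.28, and rested on 7 exon-level probe sets, all below 0, from -0.86 to -0.05. The mean of both clusters was 0.50. The one ribosomal protein gene counted as 2-fold higher therefore depends on which of its clusters is read.

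No small subunit gene reached 1.5-fold in either direction in the cluster that the rule takes. The other cluster of RPS27, with 4 exon-level probe sets in place of 1, had 7.91 in control medium and 8.64 in treated medium, 1.66-fold higher. Lowest were RPS25, with 9.54 in control medium and 8.99 in treated medium (-0.55), RPS27A, which is made as a fusion with ubiquitin, with 7.62 and 7.08 (-0.54), and RPS26, which lines the messenger exit channel, with 9.32 and 8.79 (-0.52). Highest were RPS15A, with 9.54 in control medium and 9.84 in treated medium (0.31), RPS27, with 12.15 and 12.41 (0.25), and RPS23, a protein of the decoding centre, with 10.97 and 11.09 (0.12). Among the members nearest to 0 were RPS6, the substrate of the S6 kinases, at 0.01, and RPL19 at -0.01.

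The subunits had close medians. The 40 large subunit genes had a median of -0.10 and 29 of them lay below 0. The 28 small subunit genes above the floor had a median of -0.03 and 18 lay below 0. The large subunit minus small subunit difference was -0.07, less than the SD of either subunit (0.368 and 0.215). In the clusters taken, every small subunit gene, from -0.55 to 0.31, lay inside the range of the large subunit, from -1.03 to 1.29. The upper end and part of the large subunit SD rest on RPL37, whose other cluster was at -0.28. The next highest large subunit gene, RPL13 at 0.307, lay just under RPS15A at 0.309.

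By position in the ribosome, the P stalk held RPLP0, the lowest member, and otherwise a wide range. RPLP1, a stalk protein that binds RPLP0, had 10.00 in control medium and 9.46 in treated medium, a difference of -0.54. RPL12, at the stalk base, had 13.11 and 13.19, a difference of 0.08, in a cluster of 1 probe set, and -0.36 in its other cluster, which had 8.41 and 8.05. RPLP2 shares its only cluster with a small nucleolar RNA and is no member. RPL5 and RPL11 form the 5S ribonucleoprotein with 5S ribosomal RNA and, outside the ribosome, hold back MDM2, the ligase that degrades p53. RPL5 had 13.41 in control medium and 13.22 in treated medium (-0.19), and RPL11 had 10.24 and 10.03 (-0.21). The other groups lay near the median of all members. It was -0.09 for 8 proteins at the exit of the peptide tunnel, -0.08 for 12 proteins of the head of the small subunit and -0.05 for 7 proteins reported to bind MDM2, and none of these genes passed 1.5-fold.

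In the clusters that the rule takes, the paralogs differed from their parents by little, except in 1 pair. RPL7L1 had 8.76 in control medium and 8.68 in treated medium (-0.09), and its parent RPL7 -0.64, so the paralog minus parent difference was 0.55. RPL22L1, the paralog of RPL22 that can take its place in the ribosome, had 9.98 in control medium and 9.55 in treated medium (-0.43) beside 7.40 and 7.14 for RPL22 (-0.26), a difference between them of -0.17. RPL26L1 had 8.64 in control medium and 8.51 in treated medium, and RPL26 had 10.32 and 10.44, so this pair gave the other extreme, -0.25. The pairs at both extremes rest on unlike probe sets. By the bands of exon-level signal defined below, RPL26 had 3 bright and 0 dim probe sets and RPL26L1 had 0 and 8. RPL7 had 0 bright and 3 dim ones and RPL7L1 had 3 and 7. How much of these gaps comes from the probe sets was not tested. RPL39L had 7.36 and 7.15, and RPL39 had 8.84 and 8.70, a difference between them of -0.06. The median over the 4 pairs with both genes above the floor was -0.12. RPL10L and RPS27L, below the floor, gave -0.15 and -0.17 against RPL10 and RPS27. The size of the RPS27L gap depends on the cluster. RPS27L was at 0.08, and RPS27 was at 0.25 in the cluster taken and at 0.73 in its other cluster, which gives a wider gap. RPL3L had 6.78 in control medium and 7.06 in treated medium and RPL36AL had 8.52 and 8.60, and their parents are no members. In 5 of 6 pairs the paralog was lower relative to its parent.

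At exon level the gene-level values came apart by probe set. The 77 clusters held 696 exon-level probe sets, from 1 to 20 a gene. Bands of mean log2 signal were chosen after seeing the data. They hold 197 bright probe sets (12 or more) and 392 dim ones (7 to 12), and 107 fainter ones lie outside both bands. A probe set's signal depends on its sequence as well as on the amount of message, so the bands do not rank genes by abundance. The files give no position for a probe set, so whether one lies in an exon or an intron is not known here.

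The bright probe sets of ribosomal protein genes hardly differed between the media. Over 61 members their median difference was 0.02 with an SD of 0.135, and none of the 197 passed 1.5-fold. Over all genes 5.56% of bright probe sets lay at least 1.5-fold below 0 and 5.93% as far above it, and for other genes the SD was 0.401. These bands are not matched for signal, since 115 of the 197 but only 2736 of 14045 of other genes lay from 13 to 14. From 13 to 14 the SD was 0.101 over members and 0.290 over other genes. From 12 to 13 it was 0.179 and 0.424. The dim probe sets of ribosomal protein genes lay lower. Over 70 members their median was -0.28, and 285 of 392 were below 0 (72.7%), beside a background of 50.3%. At least 1.5-fold lower were 116 of them (29.6%), beside 14.6%, and at least 1.5-fold higher were 25 (6.38%), beside 13.7%. Both subunits showed the split: the dim medians were -0.28 for the large subunit and -0.33 for the small, and the bright medians 0.00 and 0.04. For the paralogs the dim median was -0.17 over 30 probe sets, and 13.3% of these were at least 1.5-fold lower, near the background. Dim probe sets of other genes had a median of 0.00. The lower values were not spread evenly over signals under 12. In the upper part of the dim band, from 11 to 12, the 46 member probe sets had a median of -0.05 and 56.5% lay below 0. The 107 fainter ones had a median of -0.11, and 52.3% lay below 0, beside 50.9% for other genes. The highest exon-level signal of the whole table was 15.25, and whether bright probe sets respond in proportion to RNA was not tested.

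**Figure D2:**
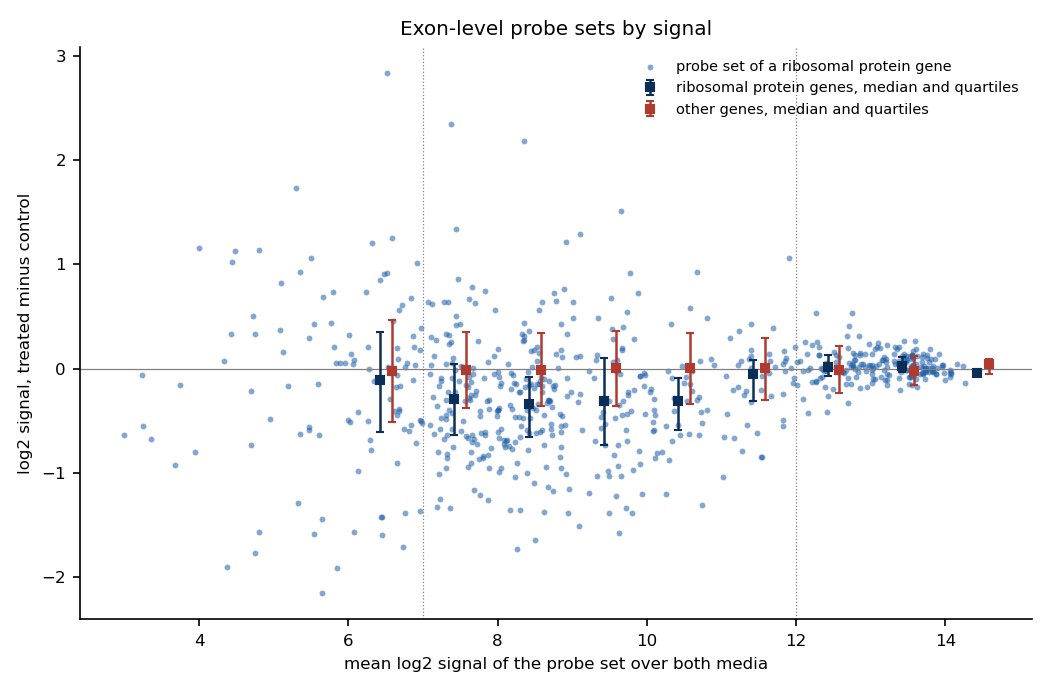
Exon-level log2 difference, treated minus control, against mean log2 signal of each probe set, for the 696 probe sets of ribosomal protein genes (points), with medians and quartiles by signal bin for these genes and for other genes (squares and bars; dotted lines bound the dim band, 7 to 12, and the squares of the open-ended outer bins stand at 6.5 and 14.5). The medians of ribosomal protein genes lie at -0.11 below a signal of 7 and between -0.34 and -0.29 from 7 to 11. They lie at -0.05 from 11 to 12 and at 0.02 from 12 to 14. Those of other genes lie between -0.02 and 0.01 from 7 to 14.

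The split also held inside genes. In 47 members with at least 1 bright and 2 dim probe sets, the median of the dim ones lay below that of the bright ones in 43 (91.5%), against a background of 48.1% over 3680 genes. The gap was at least 1.5-fold in 13 of the 47 (27.7%), against 2.23%, and its median was -0.28, beside 0.01 for 3633 other genes. The largest gaps were -1.22 in RPLP0, -1.0 in RPL13A, -0.90 in RPS23, -0.88 in RPLP1 and -0.87 in RPL29. The 4 exceptions were RPS27L, RPL10A, RPS24 and RPL17, with gaps from 0.12 to 0.28. Whether some probes also read near copies of these genes was not tested, as the files used here hold no probe sequences.

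**Figure D3:**
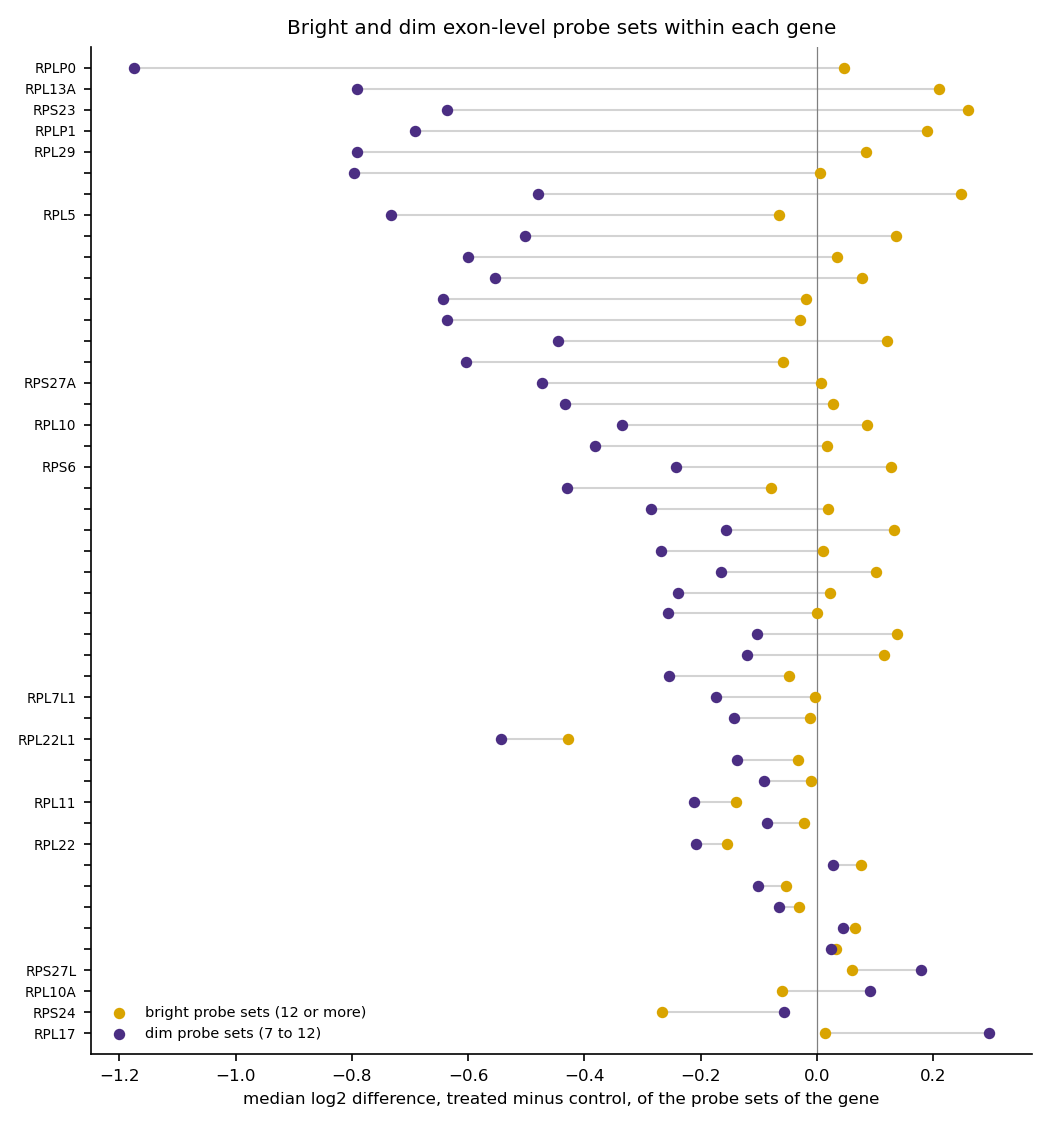
Median log2 difference, treated minus control, of the bright (gold) and the dim (purple) exon-level probe sets of each of 47 ribosomal protein genes (1 row a gene, ranked by gap). Gold points lie near 0 and purple points to their left in 43 genes, with the widest gap, -1.22, in RPLP0 and the order turned in the lowest 4 rows. Names are given for genes described in the text.

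RPLP0 shows the split most plainly. Its 5 bright probe sets had log2 signals in control medium from 12.52 to 13.94 and differences from -0.03 to 0.11, with a median of 0.05. Its 10 dim probe sets had a median difference of -1.18. The lowest of them, probe set 16771235, had 10.41 in control medium and 8.83 in treated medium, and the next lowest, 16771230, had 10.49 and 9.10. A dim probe set near each end of the order, 16771219 and 16771240, had differences of 0.00 and 0.08. Bright and dim probe sets alternated in the numbering, so the lower values did not gather at 1 end of the gene. The gene-level value of -1.03 lay on the side of the dim probe sets.

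RPL29 had 1 bright probe set, with 13.12 in control medium and 13.20 in treated medium, and 7 dim ones, all lower, from -1.20 to -0.40. RPL5 had 8 bright probe sets with a median of -0.06 and 5 dim ones with a median of -0.73, and its gene-level value, -0.19, lay nearer to the bright side. RPL32 and RPL7 had no bright probe set, and their dim medians were -0.73 and -0.69. Across 67 members the gene-level difference had a Pearson r of 0.78 and a Spearman rho of 0.64 with the dim median. Across 60 members it had 0.22 and 0.44 with the bright median. These are correlations across genes of 1 pair of columns, and each gene-level value shares its probes with the exon-level values. In RPL37 (1.29) and RPL21 (-0.02) the dim median is the same 1 probe set as the gene-level value. The sets of genes also differ, since RPL37, RPL32, RPL7 and RPL7A had no bright probe set. The values for dim and bright medians are therefore not directly comparable.

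RPS23 and RPS24 departed from a simple split and are described because of their values. In RPS23 the first 6 probe sets in the numbering were higher in treated medium, by 0.26 to 0.93, and of the other 10 the 6 with a signal below 12 were lower, from -1.91 to -0.35. In RPS24, whose message is known to be spliced in alternative forms at its end, the last 3 probe sets were higher by 1.34 to 2.19, the first was -1.39, and its 3 bright ones lay from -0.29 to -0.14. RPL17, with the turned order, had dim probe sets up to 0.72.

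**Figure D4:**
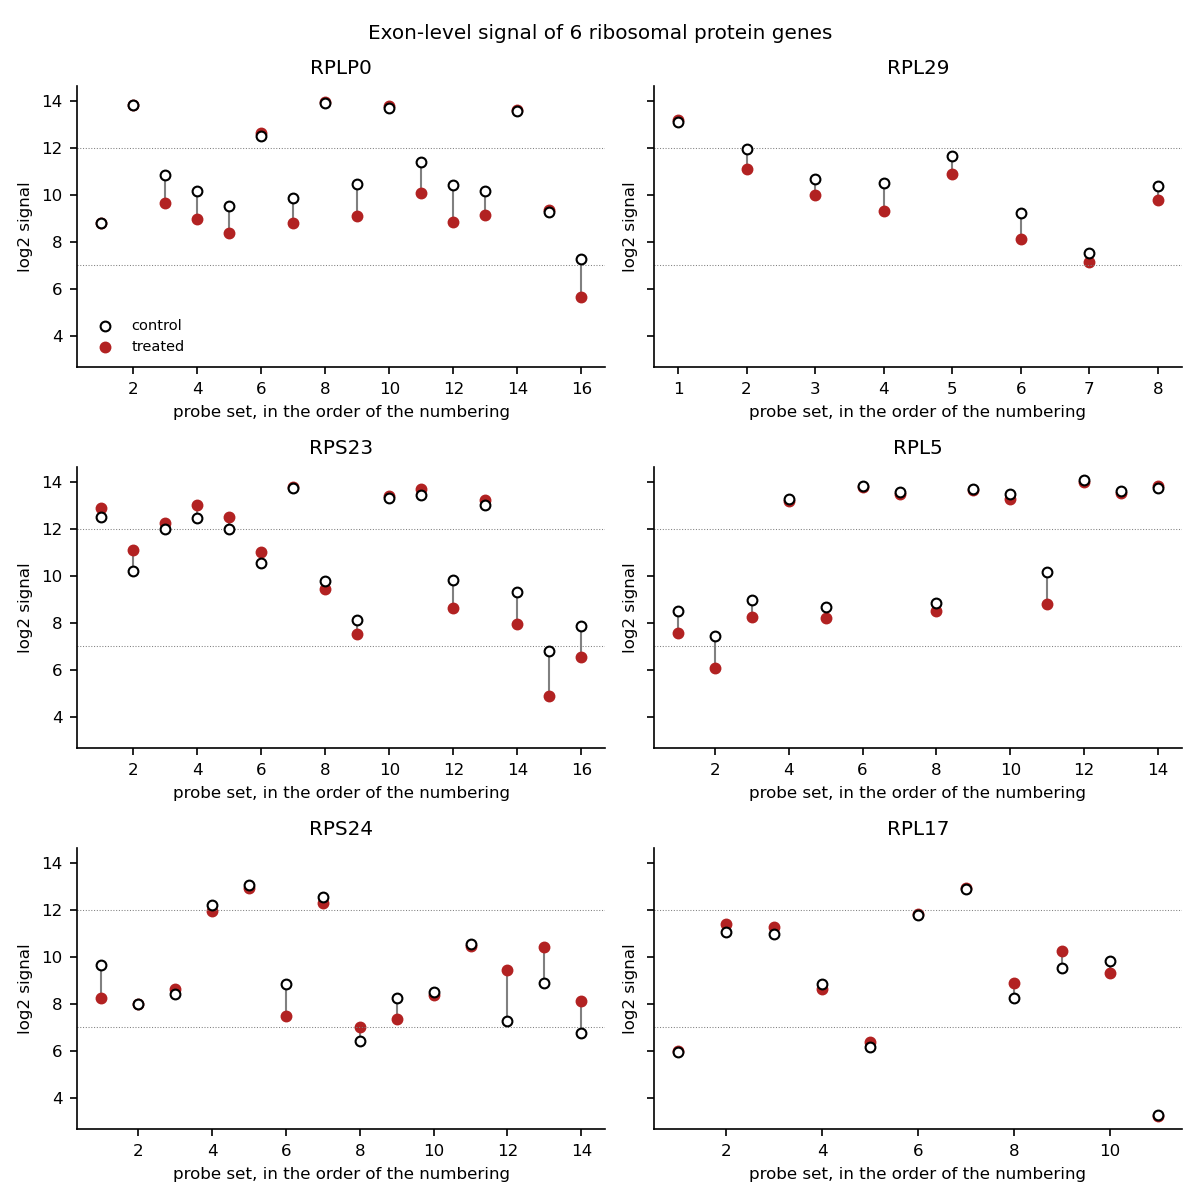
Exon-level log2 signal in control (open) and treated (red) medium for every probe set of 6 ribosomal protein genes, in the order of the probe set numbering, with dotted lines at signals of 7 and 12. In RPLP0, RPL29 and RPL5 the points above 12 coincide and most of those below are lower in treated medium, while RPS24 has 3 points at its end that are higher by 1.34 to 2.19.

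For several members the cluster that stands for the gene is a single probe set at an unusual place. The clusters taken for RPL12, RPL41, RPS27 and RPS28 each held 1 exon-level probe set, and none of their neighbours in the numbering with a known chromosome (1 to 9 of them) lay on the chromosome that RefSeq gives the gene. Each gene had another cluster among its own neighbours. RPL41 had 13.43 in control medium and 13.50 in treated medium in the first (0.07) and 9.33 and 9.01 in the second (-0.32). RPS28 had 13.46 and 13.44 in the first (-0.01) and 8.90 and 8.71 in the second (-0.19). RPS27 had 0.25 in the first and 0.73 in the second. In RPL12, RPL41 and RPS28 the second cluster was thus lower than the first, and in RPS27 it was higher.

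A list of 22 other genes taken to carry a TOP tract, such as translation factors, had a median of -0.07 at gene level. The start sites of this list were not checked here. Below 0 lay 14 of the 22, beside 50.6% of all genes. None was at least 1.5-fold higher (9.46% of all genes) and 3 were at least 1.5-fold lower (9.74%). Lowest were HNRNPA1, an RNA-binding protein, with 10.34 in control medium and 9.42 in treated medium (-0.92), and NPM1, a nucleolar chaperone, with 8.40 and 7.59 (-0.81). GAS5, the host of small nucleolar RNAs, was the other, at -0.62. Highest were EIF3F at 0.13 and EEF2, the elongation factor that moves the ribosome along, at 0.11. In 18 of them with both kinds of probe set, the dim median lay below the bright one in 13 (72.2%), beside 48.1% of 3680 genes. The gap was at least 1.5-fold in 4 (22.2%), beside 2.23%, and its median was -0.09.

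The 8 chaperones that carry new ribosomal proteins to the nucleus or into the ribosome had a median of -0.34, and 6 lay below 0 (50.6% of all genes). At least 1.5-fold lower were 2 of the 8, beside 9.74% of all genes. PDCD2L had 10.38 in control medium and 9.55 in treated medium (-0.84), and GRWD1, whose yeast counterpart accompanies Rpl3, had 9.73 and 8.93 (-0.79). AAMP, whose yeast counterpart accompanies Rpl10, and PDCD2, the chaperone of RPS2, were highest at 0.16 and 0.06. Of 12 regulators of TOP translation, 1 passed 1.5-fold: EIF4EBP1, which holds back cap-dependent translation, had 10.77 in control medium and 11.82 in treated medium, 2.07-fold higher. CNBP, a binder of TOP messages, was next at 0.18, and RPS6KB2 and EIF4EBP2 were lowest at -0.39 and -0.32. The median of the 12 was -0.11.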

How the data were processed

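The deposited gene-level (53617 probe sets) and exon-level (352859) tables hold log2 signal. Per the submitters' processing notes the authors used Affymetrix Expression Console and RMA, with versions and genome build not given in the sources used here. The method usually brings arrays to a common distribution of probe signals, which can hide a shift common to most genes. The deposited gene-level medians were 6.33 (control) and 6.31 (treated). The authors' deposited sheet pairs gene-level probe sets with symbols and a control over treated ratio, whose log2 differed from the log2 difference used here by at most 9.85e-05. Its 2 columns of intensity name no sample and were not used.

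Of several clusters of a symbol, that with the highest mean was taken. Each exon-level probe set was given to the preceding transcript cluster in the numbering. All 13668 clusters with 1 such probe set had its values within 1e-04. Python 3.11.15, numpy 2.4.6 and pandas 2.3.3 were used, and the calculations were checked on simulated columns.

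With 1 column per medium, no test was run. The members and lists were chosen with earlier results of these data known. Genes were named by rule: RPL37, RPLP0, members past 1.5-fold, the 3 highest and 3 lowest of each subunit, paralog pairs, groups of 2 to 4 genes, the 3 nearest 0, members below the floor, and the 2 highest and 2 lowest of other lists. A gene that this rule covers is not reported here, and other genes were named after their values were seen. Alternatives were other floors, scalings, cluster choices, summaries and band limits. RPL3, RPL4, RPL23, RPL23A, RPLP2 and RPSA occur only in clusters with several names, and RPL36A and RPS10 were not analysed here.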

Additional observations from a re-analysis of the deposited data

How the results depend on the processing

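No scaling moved the median of all genes by more than 0.024, and under scalings 46 to 47 of the 73 members lay below 0. With a floor at the 75th percentile of signal, 3 members were at least 1.5-fold apart and 30 of 47 lay below 0. At the 90th percentile, 21 members were above the floor, 0 were 1.5-fold or 2-fold apart, 10 lay below 0, the median of the members was 0.01 and that of the other TOP genes 0.038; RPL37, RPLP0 and the paralog pairs had no value there, nor did the pairs at the 75th. The median of all genes was -0.01 at both of these floors. Shares of all genes under these floors and scalings are not given here, so the counts of members lack a matched background. With the mean of all clusters of a symbol, 1 member was at least 2-fold apart and RPL37 was at 0.50. With the cluster of most exon-level probe sets, a choice made after seeing the data, 1 member was 2-fold apart and RPL37 was at -0.28. A band limit of 13 gave a dim median of -0.18, since brighter probe sets then count as dim. With exon-level medians in place of gene-level values, the large minus small subunit difference was -0.02. No paired analysis was possible because each group holds 1 sample. Without replicates, neither array error nor the spread between cultures was measured.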

Other observations

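Clusters named for ribosomal pseudogenes, which the rule leaves out, lay mostly on the other side of 0. Of 29 such clusters 9 were above the floor, with a median difference of 0.21, and 8 of the 9 were above 0. The share below 0 was 11.1%, beside 50.6% of all genes above the floor. Over all 29 clusters the median was 0.14 and 10 lay below 0 (34.5%). The brightest, RPL13AP5, had a log2 signal of 13.55 in control medium and 13.69 in treated medium. RPL32P3 had 8.02 and 8.56, a difference of 0.53, while its parent RPL32 was at -0.65. RPLP0P2, with a mean signal of 7.16 just under the floor, had 5.82 in control medium and 8.50 in treated medium, a difference of 2.69, while RPLP0 was at -1.03. Such copies share sequence with their parents, and how far their probes read the parent message was not tested.

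The 9 clusters that name a ribosomal protein gene together with small nucleolar RNAs had a median of -0.46. Below 0 lay 8 of the 9 (88.9%), beside 50.6% of all genes above the floor. RPL21 is named in more than 1 of them, and the cluster with RPS2 lay under the floor, at a mean signal of 6.92. A cluster of RPL21 had 8.26 in control medium and 7.31 in treated medium (-0.95). The clusters named for RPL21 alone were at -0.02, in the one that the rule takes, and at -0.06. RPSA had 10.04 and 9.31 (-0.73), RPLP2 8.88 and 8.45 (-0.43), and RPL4 was the exception with 13.38 and 13.45 (0.07).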
